A study of Mus musculus with 4 samples.

Results

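Site 7 is a Cas9 target inside an intron of Clic6 on mouse chromosome 16, and its whole profile of short repair outcomes was read from both libraries of that site. The 2 libraries are chosen by their label, and they hold 808570 of the 1636791 aligned reads of the series and 44001 of its 76510 alleles. An allele is a set of identical aligned reads, and all rows were used, each weighted by its reads. Edits were placed relative to the predicted cut, after base 98 of the 246 bp amplicon.

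The cells were E14 mouse embryonic stem cells (mESCs), a male line of the 129/Ola strain, grown without feeders in LIF medium. Both sites received the same treatment: lipofection of a plasmid carrying Cas9 nuclease and 1 sgRNA, with selection for puromycin resistance or GFP, and DNA of the pooled cells was amplified across the target days later. Site 7 and the other target, Site 9 on chromosome 6, had 2 replicates each, and untreated cells were not analysed here. The labels do not say whether replicates came from separate transfections, so the spread between them may be technical.

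Cas9 cuts both DNA strands a few bases from a short motif, the PAM, that lies beside the sequence matched by its guide. The ends are then rejoined mainly by non-homologous end joining, which can restore the sequence or remove or add a few bases, or by microhomology-mediated joining, which anneals short repeats on either side of the break and deletes what lies between them. A perfect repair can be cut again, so reads from a pool of edited cells record the joins that destroyed the target.

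The labels assign Site 7 to Runx1. The amplicon lies at chr16:92520087-92520332 (mm9, plus strand), within Clic6 (ENSMUSG00000022949.3, plus strand, chr16:92485981-92541488), a chloride intracellular channel gene. It overlaps no annotated exon, and the nearest Clic6 exon, at chr16:92528305-92528414, begins 8120 bp from the cut. Runx1, which encodes a haematopoietic transcription factor, is 81380 bp from the amplicon. The sequence around the cut is shown to place the outcomes described below, for chr16:92520145-92520224 on the plus strand of mm9, with the protospacer in capitals.
Site 7 target: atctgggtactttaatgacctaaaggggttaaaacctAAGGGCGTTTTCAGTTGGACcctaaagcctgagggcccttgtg
Guide protospacer, minus strand: GTCCAACTGAAAACGCCCTT
The guide matches the minus strand, so its PAM (AGG, chr16:92520179-92520181) lies to the left on the plus strand. Positions to the left of the cut are called the PAM side and those to the right, in the remainder of the protospacer and beyond, the far side. The cut falls between chr16:92520184 and 92520185, after the first G of a GGG run.

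That run matters for every map given here. Deleting any 1 of the 3 Gs yields the same read, and other repeats act in the same way on longer deletions. The deposited alignments put each deletion at its leftmost possible position. Unless stated otherwise, reads of such a deletion were here spread evenly over its equivalent placements, and the leftmost and rightmost placements were taken as limits. The edited call and the classes of events instead used the placement nearest the cut. A deletion thus counts as touching the cut if any of its placements does.

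The libraries had 397547 aligned reads in replicate 1 and 411023 in replicate 2. Replicate 2 stood apart by its many outcomes of few reads, described at the end, and the value of each library is therefore given throughout. Both were edited almost completely. A read with an insertion or deletion reaching to within 10 bp of the cut, called edited here, made up 99.04% of reads in replicate 1 (95% Wilson interval 99.01 to 99.07) and 98.6% in replicate 2 (98.57 to 98.65). The intervals, and the floor of 3 reads used for values of 0, describe counting error alone. Reads amplified by PCR carried no molecular identifiers and cannot be counted as separate DNA molecules. The mean was 98.8% ± 0.307 (SD, n = 2), against 63.5% ± 2.78 (n = 2) at Site 9. The sites did not overlap, but an exact two-sided permutation test of 2 against 2 libraries gave p = 0.333, the smallest p it allows.

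Few of the remaining reads matched the unedited sequence. Reads identical to the reference over their length were 0.118% of replicate 1 and 0.259% of replicate 2. Reads without any insertion or deletion were 0.924% and 1.36%, and 85.9% and 79.9% of those carried a base mismatch within 3 bp of the cut. At Site 9 the corresponding shares of reads without an insertion or deletion that carried such a mismatch were 3.24% and 1.87%.

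The authors' program called 3.53% of reads in replicate 1 and 3.57% in replicate 2 unmodified. Of the reads so called, 95.3% and 91.4% were edited by the definition above. The largest contributor was a 14 bp deletion of bases 84 to 97, of which 96.1% of 5344 reads were called unmodified. It is one of several deletions whose leftmost placement ends at base 97 or starts at base 100, just beside the cut. The profile below therefore uses all reads and not that call.

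Deletions dominated the edited reads. A single deletion touching the cut was found in 89.2% of edited reads in replicate 1 and 90.1% in replicate 2, a mean of 89.7% ± 0.64 (SD, n = 2). An insertion alone accounted for 4.81% and 3.63%, and a single deletion near the cut but not touching it for 3.82% and 4.20%. A deletion combined with an insertion made up 1.31% and 1.16%, and 2 or more deletions 0.847% and 0.893%. The replicate difference was largest in relative terms for insertions alone, which were lower in replicate 2.

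The classes differed in how often their reads also carried a mismatch within 3 bp of the event. For single deletions touching the cut it was 6.02% and 5.42% in the respective replicates. For single deletions not touching the cut it was 67.9% and 65.6%. For insertions alone it was 29.96% and 26.4%. An alignment that shows a deletion beside the cut and a mismatch at the cut can also be written as a longer deletion with inserted bases, so the boundary between these classes depends on the aligner.

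Single deletions touching the cut were more frequent at Site 7 than at Site 9, where they made up 73.9% and 75.6% of edited reads. The 4 values did not overlap between sites, with a difference in means of 14.9 percentage points (exact permutation p = 0.333, adjusted p = 0.333 over 5 comparisons between sites). Insertions alone were 18.8% and 16.6% of edited reads at Site 9, a difference that was not tested.

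The per-base map peaked in the GGG run at the cut, and the base at which it peaked depended on placement. The base just before the cut, on the PAM side, was deleted in 70.5% of edited reads in replicate 1 and 73.1% in replicate 2. Its far-side neighbour was deleted in 54.4% and 57.8%. Both bases belong to the GGG run, and the mean for the PAM-side base was 87.0% with leftmost placements and 61.9% with rightmost ones. With rightmost placements the highest base was the last G of the run, 2 bp on the far side, at 67.3%.

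**Figure D1:**
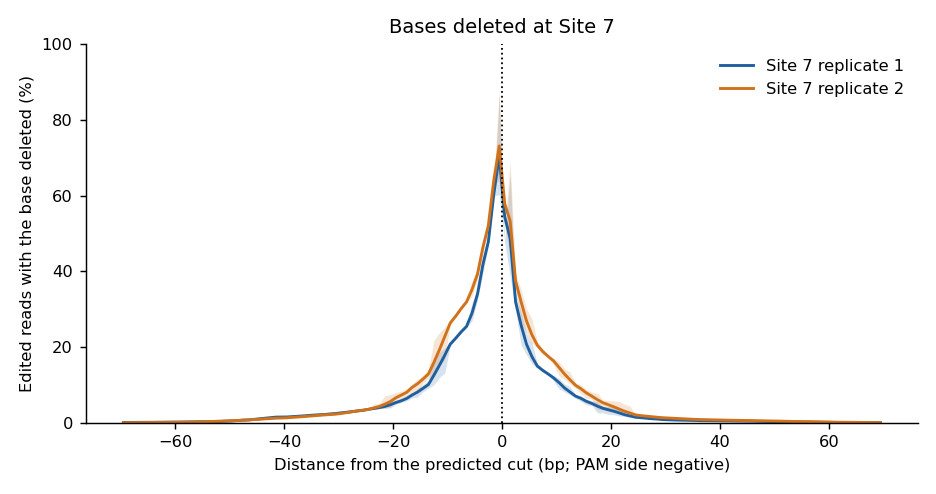
Share of edited reads (%) in which each base was deleted, by distance from the predicted cut in bp, for both Site 7 replicates. Only deletions reaching to within 10 bp of the cut are counted. Lines give the even placement and shading spans leftmost to rightmost placement. With even placement both curves peak at the PAM-side base next to the cut (70.5% and 73.1%), and replicate 2 lies above replicate 1 from 20 bp on the PAM side to 60 bp on the far side.

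Away from the peak, with even placements, the far-side base was lost less often than the PAM-side base from 3 to 20 bp. At 3 bp from the cut, 49.9% ± 3.04 of edited reads had lost the PAM-side base and 34.7% ± 3.90 the far-side base (mean ± SD, n = 2). At 6 bp the shares were 32.1% ± 4.42 and 20.3% ± 4.09. At 10 bp they were 23.5% ± 3.96 and 14.1% ± 3.16, and at 20 bp 5.95% ± 0.886 and 4.12% ± 0.937. With even placements the PAM side was the higher of the pair at each of these distances in both replicates. With rightmost placements the order reversed in replicate 2 at 20 bp, with 5.59% on the PAM side and 5.92% on the far side.

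The reach of loss on the 2 sides can be read as the distance to which a base was missing from a given share of edited reads. Loss in at least 25% of reads extended 7 bp in replicate 1 and 10 bp in replicate 2 on the PAM side, and 4 and 5 bp on the far side. Loss in at least 10% reached 14 and 16 bp on the PAM side against 11 and 13 bp on the far side. Loss in at least 1% reached 45 and 44 bp on the PAM side against 28 and 34 bp on the far side. At a level of 0.1% the order differed between replicates, with 67 bp on the PAM side and 60 bp on the far side in replicate 1, and 62 and 65 bp in replicate 2. At 80 bp on either side, no edited read had a deletion that also reached to within 10 bp of the cut. Separate deletions farther from the cut were left out of the map. By counting error alone, the floor of 3 reads is a share of 0.000762% in replicate 1 and 0.00074% in replicate 2. It sets no limit on longer deletions, because only reads that were amplified and aligned to the amplicon were counted. Whether those steps removed longer deletions was not tested. The paper reports larger deletions at this target, found with primers placed farther from the cut.

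The PAM-side curve had a step. Between 10 and 13 bp from the cut it dropped by 9.30 percentage points (SD 1.57, n = 2), from 23.5% to 14.2%. The drop was 4.55 points with leftmost placements and 11.6 with rightmost ones. With leftmost placements a larger single step lay just beyond, between 13 and 14 bp, with 6.85 points. A pair of leading deletions has its PAM-side end there, at base 86, and both begin with the repeat described below. On the far side the map dropped between 2 and 3 bp, where the GGG run ends, by 16.3 points (SD 0.622, n = 2). That drop was 8.77 points with leftmost placements, smaller than the 9.10 points between 3 and 4 bp, and 30.5 points with rightmost placements.

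The guide's own elements were lost to different degrees. At least 1 PAM base was deleted in every possible placement in 39.9% of edited reads in replicate 1 and 44.8% in replicate 2. Counted in the same way, the 3 bases between PAM and cut lost at least 1 base in 62.8% and 66.4%, and the first 3 bases beyond the cut in 48.4% and 52.7%. When a loss in any placement was enough, these became 91.1% and 92.5%, and 70.4% and 72.5%. For the PAM the shares in any placement were 44.4% and 48.6%. The 10 protospacer bases farthest from the PAM (bases 106 to 115) were hit in every placement in 13.5% and 18.2%, and in any placement in 14.5% and 19.8%. Each of these shares was higher in replicate 2.

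Deletions reaching to within 10 bp of the cut were also summed. Edited reads lost on average 5.43 bases on the PAM side and 3.46 on the far side in replicate 1. In replicate 2 the averages were 6.18 and 4.36 bases. The excess on the PAM side was 1.97 and 1.82 bases per edited read, a mean of 1.89 ± 0.109 (SD, n = 2). With leftmost placements the excess was 2.88 and 2.85, and with rightmost placements 1.18 and 0.896, so its direction did not depend on placement.

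At Site 9 the same measure was -0.715 and -0.302 bases, with the far side losing more. The difference between sites was 2.40 bases (exact permutation p = 0.333, adjusted p = 0.333), and the sites did not overlap. It was 4.48 bases with leftmost placements and 0.527 with rightmost ones. The sign at Site 9 depended on placement, since rightmost placements gave 0.239 and 0.780 there. The Site 9 PAM lies to the right on the plus strand, so one placement rule acts on opposite sides of the 2 targets.

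Deletions confined to one side lay mostly on the PAM side. Among single deletions touching the cut, those that removed PAM-side bases alone in every placement made up 23.4% in replicate 1 and 22.0% in replicate 2. Those that removed far-side bases alone made up 2.91% and 2.39%. Deletions spanning both sides were 39.7% and 45.2%, and the side of 33.9% and 30.4% depended on the placement, mostly the 1 bp deletion in the GGG run. At Site 9 the PAM-side share was 2.13% and 1.96% and the far-side share 6.17% and 4.81%, values whose difference from Site 7 was not tested.

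Deletion ends were concentrated at few bases. With leftmost placements, the first deleted base was base 98, next to the cut, in 30.5% ± 1.81 of single deletions and base 97 in 14.2% ± 0.716 (SD, n = 2). Base 95 followed with 7.70% ± 0.716 and base 86 with 7.57% ± 1.10. Base 86 lies 13 bp from the cut, and most of its 7.57% came from a pair of deletions among the 29 distinct ones that began there. At the other end, 44.0% ± 2.71 stopped at base 98, and bases 99, 100 and 101 took 9.89%, 9.80% and 9.72%. Base 108 took 2.85% and base 115, the last of the protospacer, 2.54%.

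Deletions in the aligned reads were short. Their median length was 4 bp in replicate 1 and 6 bp in replicate 2, with upper quartiles of 14 and 16 bp. The longest was 76 bp in replicate 1 and 75 bp in replicate 2, and 72 and 73 bp in the Site 9 replicates. Deletions too long to be amplified or aligned would be missing from these lengths, and their share was not tested. Deletions of 1 bp were 18.9% and 17.4% of edited reads, and those of 2 bp 15.5% and 14.7%. Deletions of 20 to 39 bp were 9.56% and 13.6%, so replicate 2 held more of the longer ones. The Site 9 libraries differed in the same direction, with 14.7% and 16.8% for 20 to 39 bp. The median there was 8 bp in both replicates, and the upper quartile 20 and 24 bp.

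The possible deletions of each length were counted from the sequence, treating equivalent placements as one. Every one of the 57 distinct deletions of 1 to 10 bp that can touch the cut was seen with at least 10 reads in each replicate, and together they held 60.3% of edited reads. Of 129 possible deletions of 11 to 20 bp, 114 were seen in both replicates, 88.4%. Of 198 possible deletions of 21 to 30 bp, 109 were, 55.1%.

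Within a length, 1 position often led. The 16 bp deletion of bases 86 to 101 held 82.03% of all reads with a 16 bp deletion among 10 possible positions. The 22 bp deletion of bases 92 to 113 held 69.1% among 18, and the 23 bp deletion of bases 86 to 108 held 63.6% among 14. Of 2 bp deletions, which have 2 distinct positions, the loss of bases 97 and 98 held 63.6%. By contrast the leading 10 bp deletion held 26.8% among 10 positions. The 16, 22 and 23 bp leaders share 3 bases between their start and the sequence after their end. So do the leaders at 14, 24 and 30 bp, which held 54.5%, 27.9% and 33.0% of their lengths. Leaders with fewer shared bases could also hold most of a length. Those at 26, 27 and 28 bp share 2 bases and held 56.7%, 55.5% and 53.1%.

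The outcomes ranked 1 to 6, 8 and 14 by mean share are shown to place their bases. Each line gives the plus strand of mm9 at chr16:92520155-92520214, with deleted bases in capitals at their leftmost placement, and names the deleted amplicon bases.
del 98-98: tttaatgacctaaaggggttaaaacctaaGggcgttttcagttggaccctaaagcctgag
del 97-98: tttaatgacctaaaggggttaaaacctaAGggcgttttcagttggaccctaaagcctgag
del 98-99: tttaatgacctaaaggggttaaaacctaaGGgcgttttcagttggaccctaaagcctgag
del 86-101: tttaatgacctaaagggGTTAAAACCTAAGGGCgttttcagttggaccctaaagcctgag
del 95-98: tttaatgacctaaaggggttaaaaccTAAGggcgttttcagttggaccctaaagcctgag
del 93-100: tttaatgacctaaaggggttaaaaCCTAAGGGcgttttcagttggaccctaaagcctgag
del 86-108: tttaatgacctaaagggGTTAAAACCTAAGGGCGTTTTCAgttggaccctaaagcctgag
del 77-115: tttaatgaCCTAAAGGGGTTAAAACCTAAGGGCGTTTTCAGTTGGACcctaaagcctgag
The first line is the loss of 1 G of the run. The 16 bp and 23 bp deletions both begin with GTT and are followed by GTT, and the 39 bp deletion begins with CCTAAAG and is followed by CCTAAAG. Deletions such as 97-98 and 95-98 share no base between their edges.

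The 1 bp deletion in the GGG run was the leading outcome in both libraries. It made up 18.9% of edited reads in replicate 1 (74387 reads) and 17.4% in replicate 2 (70545 reads), a mean of 18.1% ± 1.05 (SD, n = 2). The 2 bp deletion of bases 97 and 98 followed with 9.96% and 9.22%. The other 2 bp deletion, of bases 98 and 99 within the run, held 5.53% and 5.44%. These 3 outcomes together were 34.4% and 32.1% of edited reads.

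The 16 bp deletion of bases 86 to 101, with its 3 bp repeat, ranked 4 at 3.90% and 4.61%. The 23 bp deletion of bases 86 to 108 uses the same left copy of GTT with a copy farther right, and it held 1.51% and 2.23%. Each was higher in replicate 2, by a factor of 1.18 and 1.48.

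The remaining leading outcomes were short deletions. The 4 bp deletion of bases 95 to 98 held 2.70% and 2.45%. The 8 bp deletion of bases 93 to 100, which at its leftmost placement removes the whole PAM, held 2.76% and 2.15%. The 3 bp deletion of bases 96 to 98 held 2.06% and 2.01%. The 4 bp deletion of bases 98 to 101 held 1.78% and 1.42%, and the 3 bp deletion of bases 99 to 101, entirely on the far side, 1.86% and 1.27%. All 10 outcomes with the highest mean share were single deletions touching the cut.

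**Figure D2:**
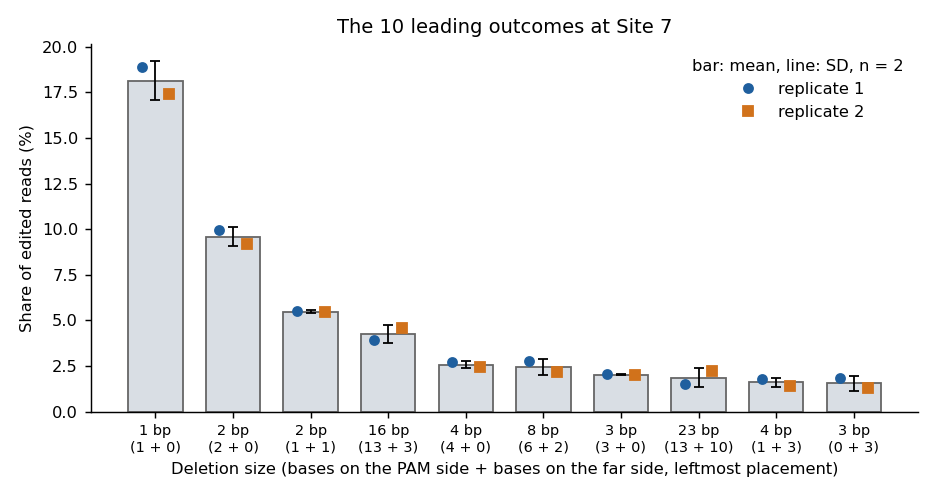
Share of edited reads (%) of the 10 leading Site 7 outcomes in replicate 1 (circles) and replicate 2 (squares), with bars for the mean and lines for the SD (n = 2). Labels give the deletion size with the bases removed on each side of the cut at the leftmost placement. The 1 bp deletion leads with 18.9% and 17.4%, and the 16 bp deletion ranks above several shorter ones.

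Of the other classes, insertions came closest. The leading insertion was an added G in the run, with 1.62% and 1.44% of edited reads. It ranked 11 by mean but was within the 10 leading outcomes of each library. The leading deletion that did not touch the cut, of bases 95 to 97, held 0.805% and 0.887%, and 97.99% of its 6767 reads carried a mismatch within 3 bp of it. The leading outcome with 2 deletions, the loss of base 93 with bases 97 and 98, held 0.104% and 0.0849%. The leading deletion with insertion, an A added at base 88 with the loss of bases 97 and 98, held 0.0353% and 0.0326%. Both of these contain the second-ranked deletion. The longest deletion with at least 100 reads in each library removed 65 bp, bases 94 to 158, and held 0.0345% and 0.0392%.

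Outcomes were concentrated in few sequences. The 10 leading outcomes of each library held 51.1% of edited reads in replicate 1 and 48.8% in replicate 2, a mean of 49.95% ± 1.58 (SD, n = 2). It took 10 and 11 outcomes to reach 50% of edited reads, and 173 and 205 to reach 90%. The effective number of outcomes, the count of equally frequent outcomes that would give the same Shannon entropy, was 77.1 and 95.7. A total of 94 outcomes reached a mean of 0.1% or more, and they held 83.7% of edited reads. Of these, 81 were single deletions touching the cut, 10 were single deletions beside it and 3 were insertions.

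**Figure D3:**
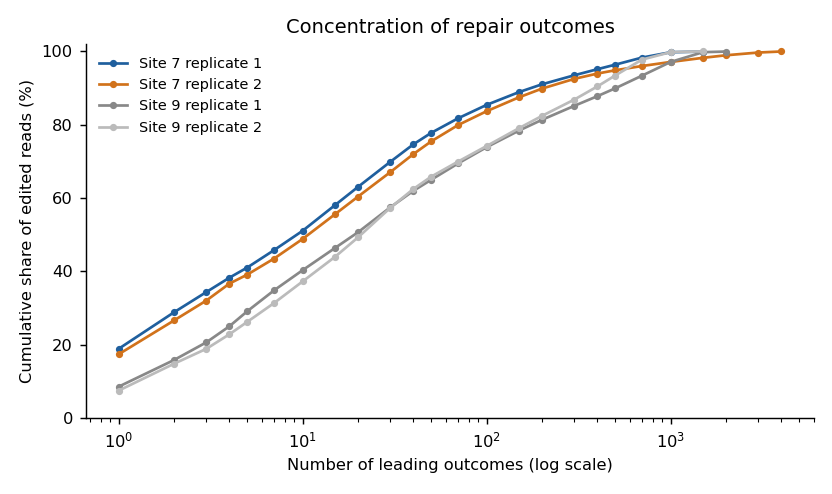
Cumulative share of edited reads (%) against the number of leading outcomes (log scale) for the 4 libraries. The Site 7 curves start at 18.9% and 17.4% and pass 50% at 10 and 11 outcomes, and the Site 9 curves run below them over the first 100 outcomes.

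The leading outcomes held more of the edited reads than at Site 9. The 10 leading outcomes there held 40.3% and 37.3%, a difference in means of 11.2 percentage points, and the effective number was 177.0 and 167.3, a difference of -85.8. Neither measure overlapped between sites (exact permutation p = 0.333 and adjusted p = 0.333 for each). Reaching 50% of edited reads took 20 and 21 outcomes at Site 9. The order did not extend to the rarest outcomes: reaching 99% took 800 and 2069 outcomes at Site 7 and 1229 and 789 at Site 9.

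The replicates of Site 7 ranked the frequent outcomes alike. Of the 10 leading outcomes of each library, 8 were shared, as were 17 of the leading 20, 46 of 50 and 88 of 100. Among the 94 outcomes at 0.1% or more, 79 had shares within 1.5-fold of each other and 86 within 2-fold. The ratio of replicate 2 to replicate 1 ranged from 0.432 to 2.26 over them. Pearson's r of the log10 shares over these 94 outcomes was 0.95, and over all 656 outcomes found in both libraries it was 0.75. Both coefficients are descriptions across outcomes of the same 2 libraries.

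**Figure D4:**
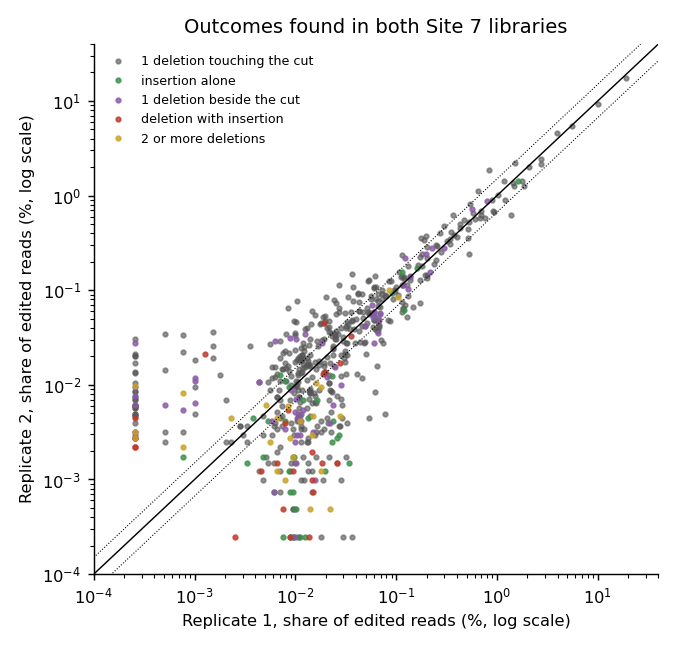
Share of edited reads (%) in replicate 2 against replicate 1, both on log scales, for outcomes present in both Site 7 libraries with at least 10 reads in total, coloured by class. The solid line marks equal shares and dotted lines a 1.5-fold difference. Points hug the line above 0.1% and spread widely below it, where the median fold difference reaches 1.92.

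Most differences between replicates were nevertheless larger than counting error over reads would give. An exact two-sided binomial test, adjusted by Benjamini-Hochberg over the 1685 outcomes with at least 10 reads in total, called 1543, 91.6% of those tested. Of these, 894 had a higher share in replicate 2 and 649 in replicate 1. The tested outcomes included 405 seen in replicate 1 alone and 675 seen in replicate 2 alone. Such outcomes had at least 10 reads in one library and none in the other, so their call was fixed in advance. They enter both the share called and the counts by direction. Among the 94 frequent outcomes 71 were called, 75.5%. The test compares 2 libraries at the level of reads and has no estimate of the spread between libraries. At Site 9 it called 94.9% of 1850 outcomes.

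The size of the disagreement depended on abundance. For outcomes at 1% or more the median fold difference was 1.17, and 16 of 17 were within 1.5-fold. Between 0.3% and 1% it was 1.16 with 25 of 30, and between 0.1% and 0.3% it was 1.25 with 38 of 47. Between 0.03% and 0.1% it was 1.52 with 60 of 122, and between 0.01% and 0.03% it was 1.92 with 50 of 216, of which 34 were absent from one library. The share of reads that would have to be reassigned to make the replicates equal was 15.5%, against 26.8% between the Site 9 replicates.

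The frequent single deletions differed in how closely they were repeated. Deletions that ended at the cut with no equivalent placement, such as 97-98, 95-98, 96-98 and 93-98, remove PAM-side bases alone. Of the 13 at 0.1% or more, 12 were within 1.2-fold between replicates. The exception was the longest, the 25 bp deletion of bases 74 to 98, with a ratio of 0.456. Of the other 68 single deletions, 28 were within 1.2-fold. Limited to lengths up to 20 bp, the counts were 12 of 12 and 25 of 53. This grouping was made after the values were seen and was not tested.

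The frequent outcomes with the most unequal shares were named at both ends. The lowest ratios of replicate 2 to replicate 1 belonged to the 8 bp deletion of bases 97 to 104 (0.171% and 0.0740%), the 25 bp deletion of bases 74 to 98 (0.146% and 0.0666%), the 46 bp deletion of bases 53 to 98 (0.531% and 0.243%) and the 6 bp deletion of bases 94 to 99 (1.37% and 0.627%). The last of these, with 5393 and 2540 reads, was the only outcome at 1% or more in replicate 1 that lay below 0.5-fold.

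The highest ratios belonged to longer deletions. The 19 bp deletion of bases 82 to 100 held 0.0622% in replicate 1 and 0.141% in replicate 2. The 39 bp deletion of bases 77 to 115, with its 7 bp repeat, held 0.835% and 1.88%, a ratio of 2.25, with 3287 and 7618 reads. The 37 bp deletion of bases 74 to 110 held 0.115% and 0.237%, and the 27 bp deletion of bases 85 to 111 held 0.175% and 0.353%. Of the 15 deletions of 20 to 39 bp at 0.1% or more, 11 were higher in replicate 2, with a median ratio of 1.35. By contrast, 5 of the 17 deletions of 6 to 9 bp were higher, with a median ratio of 0.924. The order did not extend to the longest frequent deletions: of the 2 of 40 to 46 bp, 0 were higher in replicate 2, with a median ratio of 0.714.

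The rare end of the profile separated the libraries. Replicate 1 held 1786 distinct outcomes and replicate 2 held 4184. Drawn down to the 393747 edited reads of replicate 1, replicate 2 would still be expected to show 4154. A total of 1130 outcomes were seen in replicate 1 alone and 3528 in replicate 2 alone, and they held 4.25% and 5.77% of edited reads. None of them reached 0.1%. The most abundant of them were the 43 bp deletion of bases 67 to 109 in replicate 1 (207 reads) and the 29 bp deletion of bases 70 to 98 in replicate 2 (165 reads).

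The reads behind each outcome were distributed differently. Among outcomes with at least 2 reads, the median was 40 reads in replicate 1 (quartiles 21 and 84, 1128 outcomes) and 6 reads in replicate 2 (quartiles 3 and 16, 3163 outcomes). Replicate 1 had few outcomes of 4 to 7 reads, 52, and most of 32 to 63 reads, 345. Replicate 2 had 884 and 154 in those ranges. The Site 9 libraries had medians of 41 and 65 reads, so replicate 2 of Site 7 had the lowest median of the 4 libraries. The labels give no amount of input DNA, and its part in this difference was not tested.

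**Figure D5:**
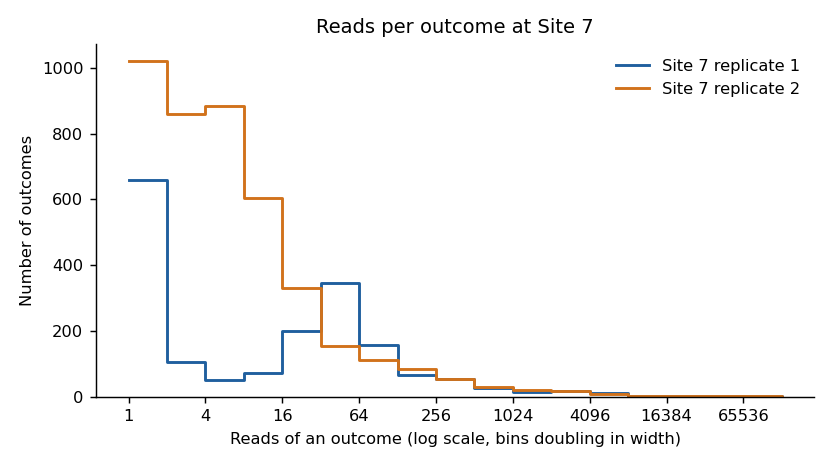
Number of distinct Site 7 outcomes by their reads (log scale, bins doubling in width) in each replicate. Replicate 1 has a separate rise at 32 to 63 reads (345 outcomes), whereas replicate 2 declines from 1 read with a second level at 4 to 7 reads (884 outcomes).

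The outcomes private to a library also differed in kind. Of those with at least 10 reads, 405 were private to replicate 1, of which 225 were insertions alone and 32 single deletions touching the cut. The median length of these deletions was 57 bp. Of the 675 private to replicate 2, 138 were insertions alone and 310 single deletions touching the cut, with a median length of 42 bp.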

How the data were processed

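Deposited allele tables of 4 libraries were used. The authors trimmed reads with Trim Galore 0.3.1, per the submitters' processing notes, and ran CRISPResso 1.0.8, per the study's methods, to align them to the amplicon and merge identical aligned reads. The settings are not given in the sources used here. The deposited counts are raw reads per allele, and the deposited percent, its share of aligned reads, was used only as a check on them. The authors' modified or unmodified call served as an alternative.

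Insertions and deletions were read from the alignments with Python 3.11.15, pandas 2.3.3, numpy 2.4.6 and scipy 1.17.1, and drawn with matplotlib 3.10.9. Gaps at read ends were taken as unsequenced. Events reaching within 10 bp of the cut, which lies 3 bp from the PAM, defined the outcome. Mismatches and events farther away were ignored, and equivalent placements were merged. Amplicons were matched exactly to mm9 and annotated with GENCODE vM1. The deletion map, concentration and distance between replicates were computed over edited reads.

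Libraries held 380601 to 447620 aligned reads. Shares have 95% Wilson intervals. Sites were compared by exact permutation over libraries, adjusted over 5 measures, and outcomes between replicates by exact binomial tests with Benjamini-Hochberg adjustment at 0.05. The scripts were tested on simulated data. Outcomes were named by rule: the 10 leading ones, the leader of each other class, the longest with at least 100 reads in each library, and the 4 lowest and 4 highest ratios among outcomes of at least 0.1%. Outcomes in one library, by length, or called unmodified were named after their values were seen. The members and lists were chosen with earlier results of these data known. Alternatives concerned the window, low-read alleles, the program's call, the unit of an outcome, deletion placement, a left-out replicate and a replicate block.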

Additional observations from a re-analysis of the deposited data

How the results depend on the processing

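The values below are means of both Site 7 libraries unless stated. The share of single deletions touching the cut was 90.4% with a 5 bp window, 87.7% over the whole read, 91.0% with alleles of at least 10 reads and 91.4% with reads called modified only. The share of the 10 leading outcomes was 51.7% with reads called modified only, 44.7% with allele rows as deposited, and 48.0% with mismatches within 10 bp kept in the outcome, an alternative chosen after seeing the data. The effective number of outcomes was 100.4 over the whole read, 203.9 with allele rows and 112.6 with mismatches kept. The excess of PAM-side deleted bases was 2.86 with leftmost placements, 1.04 with rightmost placements and 2.03 in reads with 1 deletion and no insertion. Outcomes that differed between replicates numbered 276 of 365 at Site 7 and 360 of 435 at Site 9 when at least 100 reads were required, which tests fewer outcomes. Of the other 98 alternative values, 52 were differences between sites. All 52 kept their sign, but their p could not pass 0.05 under any setting and says nothing about stability. Among them the difference in PAM-side excess was 4.48 with leftmost and 0.527 with rightmost placements, and that in effective number was -155.1 with allele rows. A further 12 left out 1 of 2 replicates, which moves a mean by less than 1 SD by construction. The remaining 34 included 15 outcomes to reach 50% of edited reads and a distance between Site 7 replicates of 22.0%, both with allele rows. With reads called modified only, the difference in edited share between sites fell to 0.211 points (exact permutation p = 0.667), because that call removes unedited reads.

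Replicate numbers are shared between sites, but no label says that they mark a shared batch. Deviations of the 5 class shares correlated with r = 0.97 between same-numbered libraries. That value describes 5 classes in 2 libraries a site, and a shift shared by same-numbered libraries was not tested. With a replicate block the difference in edited share was 35.3 points, with an exact permutation p of 0.5, the smallest it allows. No comparison between sites could be called with or without the block. Leaving out a replicate gives no value for agreement between replicates. Between 0.01% and 0.03% the median fold difference between replicates was 1.92, which limits single values at that level.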

Other observations

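Base mismatches, which the outcome definition ignored, were also concentrated at the cut. Within 3 bp of it, 3.40% of sequenced bases in replicate 1 and 3.38% in replicate 2 differed from the reference. At 4 to 10 bp the rates were 0.474% and 0.519%, and at 31 to 80 bp both were 0.0489%. A mismatch within 10 bp was carried by 10.2% and 9.35% of edited reads at Site 7, and by 17.7% and 17.2% at Site 9. Untreated cells were not analysed here, so the rate before editing is unknown.

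Events more than 10 bp from the cut were carried by 2.66% of aligned reads in replicate 1 and 2.81% in replicate 2, and in 0.0314% and 0.0292% they were the only event.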
